A study of Homo sapiens with 2 samples.

Results

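MHC class I molecules carry short peptides from inside a cell to its surface, where cytotoxic T cells and natural killer cells read them. Proteasomes cut proteins into peptides, the TAP transporter moves the peptides into the endoplasmic reticulum (ER), and tapasin with other chaperones helps to load them onto a heavy chain paired with β2-microglobulin. Blood cells usually carry much class I, and mature red cells lose it. The set described here has 9 genes of this route, taken by name from the deposited tables of 61806 genes. They are the heavy chains HLA-B, HLA-C and HLA-E, their light chain B2M, the transporter subunits TAP1 and TAP2, the gene of tapasin (TAPBP), and the immunoproteasome subunits PSMB8 and PSMB9. All 9 had an FPKM value in both libraries (FPKM scales fragments by gene length and library size, as the authors deposited it) and passed a minimum of 10 counts in at least 1 library.

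The RNA came from HEL, a human erythroleukemia cell line labelled WT, grown with L1 at 1 µM or with 0.5% DMSO, the vehicle, for 24 h. L1 is a small molecule known here by its code name, and the comparison asks which transcripts differ after treatment with it. Each condition has 1 library, with 32556872 counts for DMSO and 27135647 for L1, so the spread between cultures was not measured, no test was run, and no difference has a replicate check. Counts were scaled with the TMM method of edgeR, which set the effective size of the DMSO library at 1.16 times that of L1. Each log2 ratio is L1 over DMSO and carries an exact 95% interval (Clopper-Pearson) for the counting error of these 2 libraries only. HEL was checked against marker lists. Of the erythroid markers, 8 of 8 passed 10 counts, with summed counts of 39531 under DMSO and 50810 under L1. Of the megakaryocyte markers 4 of 5 passed, with sums of 55721 and 44193, and PF4 was at 0. These sums are not scaled for library size, and single genes differed. With a prior count of 2, the log2 ratios of the erythroid markers ran from -0.08 to 1.78 (median 0.42). Those of the megakaryocyte markers that passed ran from -0.73 to 0.03 (median -0.35). The part of these lineage markers in the differences described here was not tested. CD3D and CD3E (T cells), MS4A1 (B cells) and KLRD1 (natural killer cells) had 0 counts in both libraries, which allows up to 3 counts each. Other markers of these cell types were detected, CD2 (T cells) with 57 and 55 counts, CD79A (B cells) with 113 and 60, and NCR1 (natural killer cells) with 157 and 124. Among the 4 monocyte, macrophage and dendritic markers, FCER1A, a chain of the high-affinity IgE receptor, was abundant, with 21289 counts under DMSO and 16013 under L1, while CD14 had 0 and 5. Of the 3 of these 4 that passed 10 counts, only CSF1R, the receptor of a macrophage growth factor, was past 2-fold. CSF1R had 36 and 2 counts and a log2 ratio of -3.96 (95% interval -7.06 to -2.00). Of all genes, 4.83% were lower by 2-fold or more.

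The genes of the class I route differed in direction. TAPBP was the only one of the 9 past 2-fold and was 2.30-fold lower in the L1 library. TAP1, HLA-B, HLA-C and B2M were 1.20- to 1.42-fold higher in the L1 library, HLA-E was 1.24-fold lower, and TAP2, PSMB8 and PSMB9 had log2 ratios between -0.01 and 0.06. With a prior count of 2, 0 of the 9 genes were at least 2-fold higher, against 7.12% of the 18123 genes kept, and 1 of the 9 was at least 2-fold lower, against 4.83%. All 9 had more than 500 counts in both libraries, and of the 8828 genes with at least 500 counts in 1 library 2.20% were higher and 2.34% lower by 2-fold or more. A log2 ratio above 0 was found for 6 of the 9, against 49.6% of all genes. The median of the 9 was 0.06, against -0.0040 for all genes, so the set as a whole stood close to the background. At 1.5-fold, 0 of the 9 were higher (13.8% of all genes, 5.46% of those with at least 500 counts) and 1 was lower (11.4% and 6.64%). In RNA from a whole culture, fewer cells that carry a transcript and less of it per cell cannot be told apart.

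**Figure D1:**
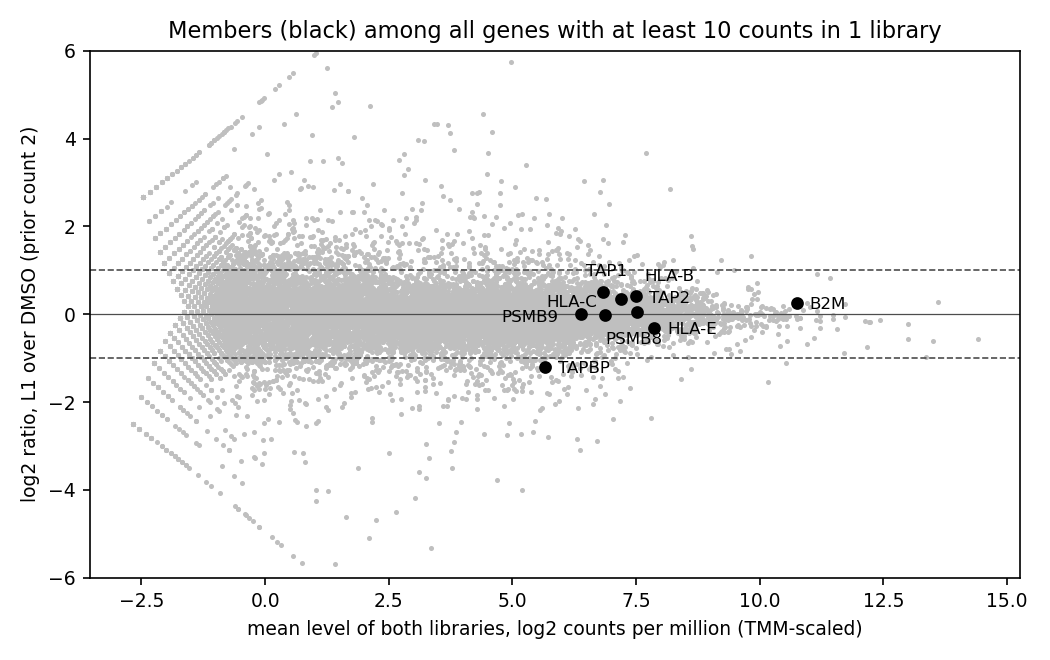
Log2 ratio of L1 over DMSO with a prior count of 2 (vertical axis) against the mean level of both libraries in log2 CPM (horizontal axis) for the 18123 genes kept (grey) and the 9 class I genes (black), with dashed lines at 2-fold. The vertical axis stops at 6 in either direction, which leaves out 17 genes. TAPBP lies below the lower line, and the other 8 genes lie between the lines.

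B2M had the highest level of the 9 genes and TAPBP the lowest in both libraries. On the FPKM scale B2M stood at 505 in DMSO and 607 in L1. HLA-E was second, with FPKM levels of 89.2 and 72.0, followed by HLA-C, with 52.0 and 66.1. The FPKM of HLA-E and HLA-C therefore came closer in the L1 library, but their counting intervals (70.1 to 73.8 and 64.2 to 68.1) did not overlap. In DMSO, PSMB8 (33.9) and HLA-B (33.7) had FPKM levels whose counting intervals overlapped, and in L1 HLA-B (45.1) stood above PSMB8 (33.7). The gene lengths implied by the FPKM values differed from the exon lengths of GENCODE release 29 by a factor from 0.50 for B2M to 1.58 for TAP2, so levels of different genes depend on the gene models. With the GENCODE lengths, in TMM-scaled CPM per kilobase, B2M was again highest (257 in DMSO, 310 in L1) and TAPBP lowest (14.0 and 6.08). HLA-B and HLA-C were then near each other, at 50.7 and 51.7 in DMSO and 67.9 and 65.7 in L1. The order of TAP1 and TAP2 turned with the lengths, since TAP1 was above TAP2 in FPKM and below it with the GENCODE lengths (19.6 against 28.0 in DMSO).

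**Figure D2:**
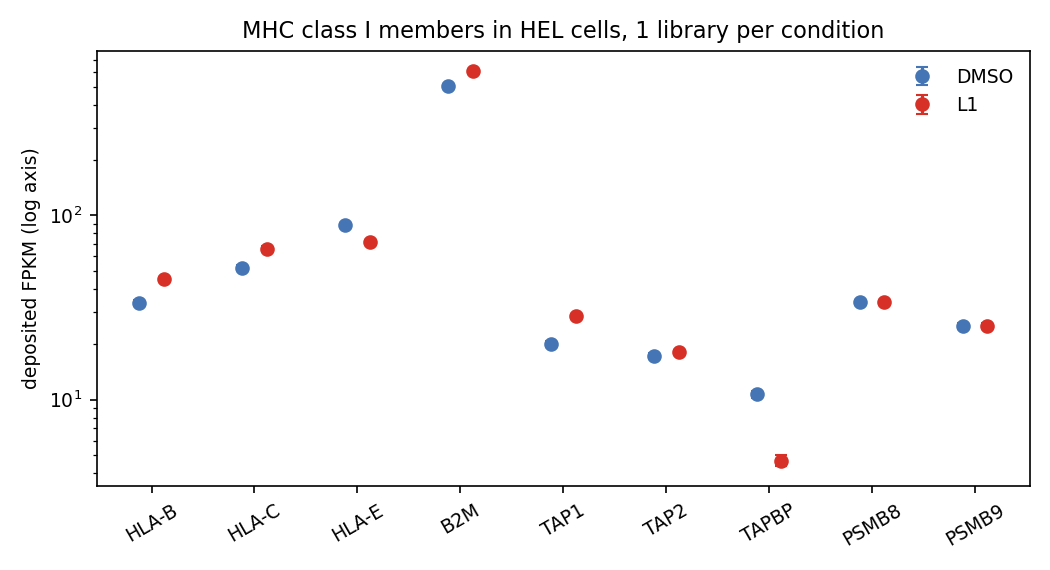
Deposited FPKM on a log axis of the 9 class I genes in the DMSO library (blue) and the L1 library (red), with 95% counting intervals that are mostly smaller than the points. B2M is highest at 505 and 607, and TAPBP is lowest at 10.7 and 4.66.

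HLA-B and HLA-C encode classical heavy chains, which present peptides to CD8 T cells, and both were higher in the L1 library. HLA-B (ENSG00000234745, chromosome 6 from 31269491 to 31357188 on GRCh38, GENCODE release 29) had 4952 counts under DMSO and 5717 under L1. For HLA-B the log2 ratio was 0.42, with a 95% interval of 0.37 to 0.48. HLA-C (ENSG00000204525, chromosome 6 from 31268749 to 31272130) had 4148 and 4545 counts. For HLA-C the log2 ratio was 0.34, with a 95% interval of 0.28 to 0.41. The intervals of these ratios overlapped, and the HLA-B to HLA-C count ratio was 1.19 in DMSO (95% interval 1.15 to 1.24) and 1.26 in L1 (1.21 to 1.31).

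HLA-E encodes a nonclassical heavy chain, which mostly shows leader peptides of other class I chains to natural killer cells through CD94 and NKG2 receptors. HLA-E (ENSG00000204592, chromosome 6 from 30489467 to 30494205) differed in the other direction, with 8289 counts under DMSO and 5767 under L1. For HLA-E the log2 ratio was -0.31, with a 95% interval of -0.36 to -0.26. Compared within each library, which needs no scaling, HLA-E had 1.67 counts for each HLA-B count in DMSO (95% interval 1.62 to 1.73) and 1.01 in L1 (0.97 to 1.05). Of the summed counts of the 3 heavy chains, HLA-E made up 47.7% in DMSO (95% Wilson interval 46.9 to 48.4) and 36.0% in L1 (35.2 to 36.7). The share of HLA-B was 28.5% in DMSO and 35.7% in L1, and that of HLA-C was 23.9% and 28.4%.

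B2M encodes the light chain that every class I heavy chain needs to fold and leave the ER. B2M (ENSG00000166710, chromosome 15 from 44711487 to 44718877) had 50069 counts under DMSO and 51946 under L1. For B2M the log2 ratio was 0.27, with a 95% interval of 0.25 to 0.28. There were 10.1 B2M counts for each HLA-B count in DMSO and 9.09 in L1.

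Sequence shared with other genes limits these values. HLA-B shares 25.5% of its 31-base transcript words with other genes, and 8.86% with HLA-C. The largest part, 16.1%, is with AL671883.2, a pseudogene that overlaps HLA-B on the opposite strand and had 23 and 24 counts. The shares were 17.0% for HLA-C, 11.8% for HLA-E and 1.79% for B2M. In GENCODE the exons of HLA-B also overlap those of HLA-C on the same strand. Added together, both genes had 9100 and 10262 counts, with a log2 ratio of 0.39 (95% interval 0.35 to 0.43). HLA genes vary between people, and the effect of the HLA alleles of HEL on the reads that were counted was not tested.

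The promoters of class I genes carry an NF-κB site, an interferon-stimulated response element (ISRE) and the SXY module, where RFX, CREB or ATF1 and NF-Y bind and recruit NLRC5. HLA-E (log2 ratio -0.31) and NLRC5 (-0.36) were lower in the L1 library. The part of this module in the ratios of class I genes was not tested. The windows of HLA-B, HLA-C and B2M, which were higher in the L1 library, are shown. They run from 250 bases before the start site to 50 bases after it, 5′ to 3′ on the gene's strand, from RefSeq on GRCh38.p14, which holds a window for 8 of the 9 genes (not HLA-E). Capitals mark matches on either strand to CCAAT (an NF-Y box) and TGACG (the core of a CREB or ATF1 site). They also mark GAAA with any 2 bases and then GAAA (the ISRE core) and the shorter GAANNGAAA. GGGNNTTCC, a short form of an NF-κB site, is marked too, and forms of another length are not. Of all 35116 windows, 34.6% hold CCAAT, 24.6% TGACG, 3.57% the ISRE core, 7.66% GAANNGAAA and 6.58% GGGNNTTCC.
HLA-B, chr6:31357130-31357429, minus strand: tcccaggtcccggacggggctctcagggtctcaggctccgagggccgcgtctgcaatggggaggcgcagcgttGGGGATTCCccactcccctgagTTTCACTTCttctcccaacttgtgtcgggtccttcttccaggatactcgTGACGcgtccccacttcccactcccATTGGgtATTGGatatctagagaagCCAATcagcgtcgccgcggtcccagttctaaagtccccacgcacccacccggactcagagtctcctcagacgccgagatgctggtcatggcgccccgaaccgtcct
HLA-C, chr6:31272043-31272342, minus strand: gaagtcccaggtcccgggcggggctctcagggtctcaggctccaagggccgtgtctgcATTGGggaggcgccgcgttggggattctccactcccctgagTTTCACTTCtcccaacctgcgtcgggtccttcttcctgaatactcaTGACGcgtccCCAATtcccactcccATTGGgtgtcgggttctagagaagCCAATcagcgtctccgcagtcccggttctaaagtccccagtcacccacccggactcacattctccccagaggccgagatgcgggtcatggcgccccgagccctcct
B2M, chr15:44711267-44711566, plus strand: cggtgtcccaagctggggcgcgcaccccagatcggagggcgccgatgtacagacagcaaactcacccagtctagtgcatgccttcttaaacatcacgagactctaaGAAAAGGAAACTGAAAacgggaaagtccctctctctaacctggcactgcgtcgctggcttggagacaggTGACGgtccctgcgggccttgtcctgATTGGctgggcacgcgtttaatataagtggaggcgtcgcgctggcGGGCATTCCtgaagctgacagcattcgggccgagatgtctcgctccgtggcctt

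Counted from 0 at the start site, HLA-B held GGGNNTTCC at position -177, GAANNGAAA at -155, TGACG at -106 and CCAAT or its reverse complement at -81, -74 and -56. HLA-C held GAANNGAAA at -151, TGACG at -105 and 4 matches to CCAAT, at -192, -95, -80 and -56, and GGGNNTTCC was not found in its window. Aligned end to end, the windows of HLA-B and HLA-C were identical at 269 bases and differed at 27, apart from 8 gap positions. B2M held the ISRE core at -144 and -138, which overlap, TGACG at -75, a CCAAT match at -49 and GGGNNTTCC at -4. The B2M window also holds gggaaagtcc, which is longer than GGGNNTTCC and is not marked. The matches describe letters and were not tested as binding sites.

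The transporter subunits differed. TAP1 and TAP2 form the pump that carries peptides into the ER, and both subunits are needed for transport. TAP1 (ENSG00000168394, chromosome 6 from 32845209 to 32853978) had 3018 counts under DMSO and 3688 under L1, and FPKM levels of 20.0 and 28.4. For TAP1 the log2 ratio was 0.50, with a 95% interval of 0.43 to 0.57, the highest ratio of the 9 genes. TAP2 (ENSG00000204267, chromosome 6 from 32821833 to 32838780) had 5721 and 5147 counts, and FPKM levels of 17.4 and 18.1. For TAP2 the log2 ratio was 0.06, with a 95% interval of 0.01 to 0.12. The TAP1 to TAP2 count ratio was 0.53 in DMSO (95% interval 0.50 to 0.55) and 0.72 in L1 (0.69 to 0.75), so the intervals of the ratio did not overlap. Of the words in TAP2 transcripts, 31.7% are shared with AL669918.1, a gene annotated over the same exons on the same strand, which had 40 and 80 counts. The share was 14.0% for TAP1, most of it with the noncoding antisense gene PSMB8-AS1 (206 and 264 counts), and with the overlapping genes of either strand summed the log2 ratio of TAP1 was 0.51.

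TAPBP was the gene with the largest difference. It encodes tapasin, which bridges TAP and the heavy chain and holds the chain open until a well-binding peptide is found. TAPBP (ENSG00000231925, chromosome 6 from 33299694 to 33314387) had 2263 counts under DMSO and 849 under L1, and FPKM levels of 10.7 and 4.66. The log2 ratio of -1.20 had a 95% interval of -1.32 to -1.09, all of it past 2-fold. A ratio at or below that of TAPBP was found for 3.28% of the 18123 genes, and for 1.62% of the 8828 genes with at least 500 counts in 1 library. No exon of another annotated gene overlapped an exon of TAPBP, and 9.81% of its words occur in transcripts of other genes.

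The count ratios of TAPBP to TAP1, TAP2 and TAPBPL differed between the libraries without any scaling, as for the other ratios within a library, of which 16 were computed. There were 0.75 TAPBP counts for each TAP1 count in DMSO (95% interval 0.71 to 0.79) and 0.23 in L1 (0.21 to 0.25), a ratio 3.26 times as large in DMSO. Against TAP2 the values were 0.40 in DMSO (0.38 to 0.42) and 0.16 in L1 (0.15 to 0.18). TAPBPL, the gene of the tapasin relative TAPBPR, which also edits peptides, had 246 counts under DMSO and 226 under L1, a log2 ratio of 0.09 whose interval from -0.18 to 0.36 included 0. TAPBP had 9.20 counts for each TAPBPL count in DMSO (8.06 to 10.5) and 3.76 in L1 (3.24 to 4.37).

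The genes beside TAPBP on chromosome 6 did not share its ratio. Among the 5 nearest protein-coding genes with at least 100 counts on each side, the log2 ratios ran from -0.53 for ZBTB22 to 0.43 for WDR46. RGL2, the neighbour on the other side, had 1721 and 1204 counts and a log2 ratio of -0.30. ZBTB22, which lies next to TAPBP on the chromosome, had 576 counts under DMSO and 345 under L1. Its interval from -0.72 to -0.33 did not reach that of TAPBP.

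**Figure D3:**
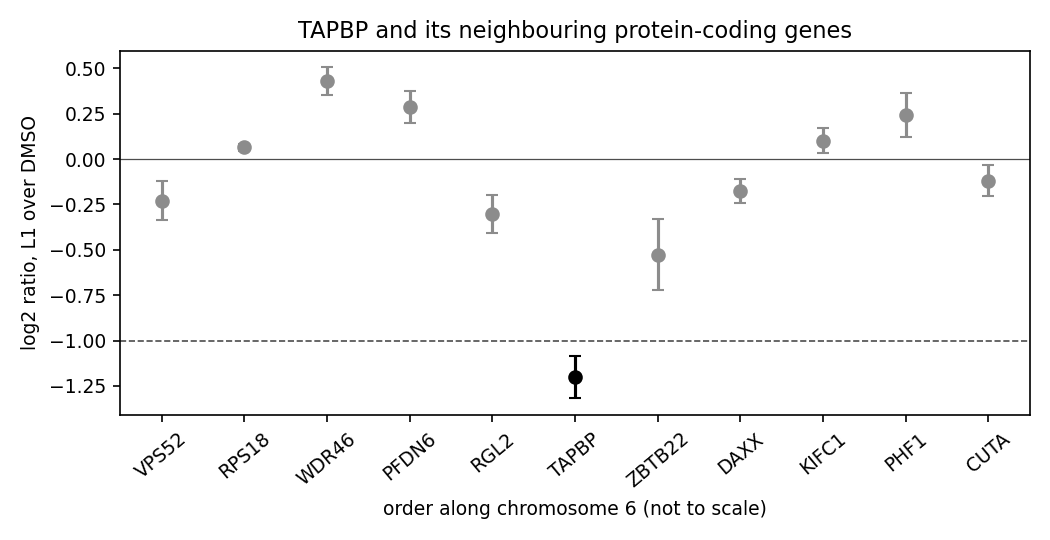
Log2 ratio of L1 over DMSO with 95% counting intervals for TAPBP (black) and the 5 nearest protein-coding genes on each side with at least 100 counts (grey), in order along chromosome 6, with a dashed line at 2-fold lower. TAPBP lies at -1.20, and the 10 neighbours lie between -0.53 and 0.43.

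The start region of TAP1 is shown with that of PSMB9, which is read in the other direction from the same stretch of chromosome 6 and had a log2 ratio near 0, and with that of TAPBP. The RefSeq start sites of TAP1 and PSMB9 are 488 bases apart. The capitals mark the same motifs as above, and the TAP1 window is the upstream one of its 2 RefSeq windows.
TAP1, chr6:32853655-32853954, minus strand: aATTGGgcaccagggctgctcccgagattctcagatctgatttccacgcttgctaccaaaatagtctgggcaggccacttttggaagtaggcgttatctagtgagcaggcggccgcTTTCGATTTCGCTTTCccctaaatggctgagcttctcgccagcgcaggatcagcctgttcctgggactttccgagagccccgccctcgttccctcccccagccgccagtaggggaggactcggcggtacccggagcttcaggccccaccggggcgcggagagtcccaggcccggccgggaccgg
PSMB9, chr6:32853942-32854241, plus strand: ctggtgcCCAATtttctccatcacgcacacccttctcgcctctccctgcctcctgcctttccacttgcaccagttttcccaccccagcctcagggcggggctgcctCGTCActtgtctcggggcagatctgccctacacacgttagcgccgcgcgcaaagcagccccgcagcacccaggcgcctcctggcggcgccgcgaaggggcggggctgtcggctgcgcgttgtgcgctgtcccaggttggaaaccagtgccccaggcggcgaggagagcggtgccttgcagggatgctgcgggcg
TAPBP, chr6:33314029-33314328, minus strand: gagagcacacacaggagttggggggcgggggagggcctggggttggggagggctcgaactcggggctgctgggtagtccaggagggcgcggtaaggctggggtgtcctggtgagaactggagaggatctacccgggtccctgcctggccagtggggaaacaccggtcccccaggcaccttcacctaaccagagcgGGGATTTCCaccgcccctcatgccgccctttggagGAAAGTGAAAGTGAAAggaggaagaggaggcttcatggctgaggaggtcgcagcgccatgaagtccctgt

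TAP1 held the ISRE core in reverse complement at positions -134 and -128, which overlap, and a CCAAT match at -249. The TAP1 window also holds gggactttcc, which is longer than GGGNNTTCC and is not marked. TAPBP held the ISRE core at -20 and -14, which overlap as well. TAPBP also held GGGNNTTCC at -55. PSMB9 held TGACG in reverse complement at -144 and a CCAAT match at -243. Neither GAANNGAAA nor the ISRE core was found in its window, which begins at 32853942. That window does not reach the ISRE core of TAP1, which lies between the start sites of both genes. The windows of TAP2 and PSMB8 are not shown, and both genes also held an ISRE core. It lay at -58 for TAP2 (log2 ratio 0.06) and at -4 in the PSMB8 window with start site 32844047 (log2 ratio -0.01). The part of these motifs in the ratios was not tested.

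PSMB8 and PSMB9 encode the immunoproteasome subunits LMP7 and LMP2, which take the places of PSMB5 and PSMB6 in the proteasome and shift its cuts toward peptides that fit class I. PSMB8 (ENSG00000204264, chromosome 6 from 32840717 to 32844703) had 3749 counts under DMSO and 3221 under L1. For PSMB8 the log2 ratio was -0.01, with a 95% interval of -0.07 to 0.06. PSMB9 (ENSG00000240065, chromosome 6 from 32844136 to 32859585) had 2660 and 2301 counts, and an FPKM level of 25.1 in both libraries. For PSMB9 the log2 ratio was 0.0039, with a 95% interval of -0.08 to 0.08. The counting intervals of both genes included 0 and reached no further than 0.085 from it on the log2 scale. They do not cover the choice of scaling. Exons of PSMB8, PSMB9 and PSMB8-AS1 overlap, on both strands, and reads from them cannot be told apart unless strand was used. Summed over these 3 genes, the log2 ratio was 0.02 (95% interval -0.03 to 0.07).

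The subunits that PSMB8 and PSMB9 replace were higher in the L1 library, so the balance within each pair differed between the libraries. PSMB5 had 2473 counts under DMSO and 2764 under L1 (log2 ratio 0.37), and PSMB6 had 1676 and 2011 (0.48). PSMB8 made up 60.3% of the counts of PSMB8 and PSMB5 in DMSO (95% Wilson interval 59.0 to 61.5) and 53.8% in L1 (52.6 to 55.1). PSMB9 made up 61.3% of the counts of its pair with PSMB6 in DMSO (59.9 to 62.8) and 53.4% in L1 (51.9 to 54.8). PSMB10, the remaining immunoproteasome subunit, which is not among the 9 genes, made up 22.1% of its pair with PSMB7 in DMSO (21.0 to 23.4) and 18.2% in L1 (17.1 to 19.4). In all 3 pairs the share was lower in the L1 library and the counting intervals did not overlap. Per length, on the FPKM scale, the share of PSMB8 was 40.3% in DMSO and 34.2% in L1, and that of PSMB9 was 40.8% and 33.2%.

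**Figure D4:**
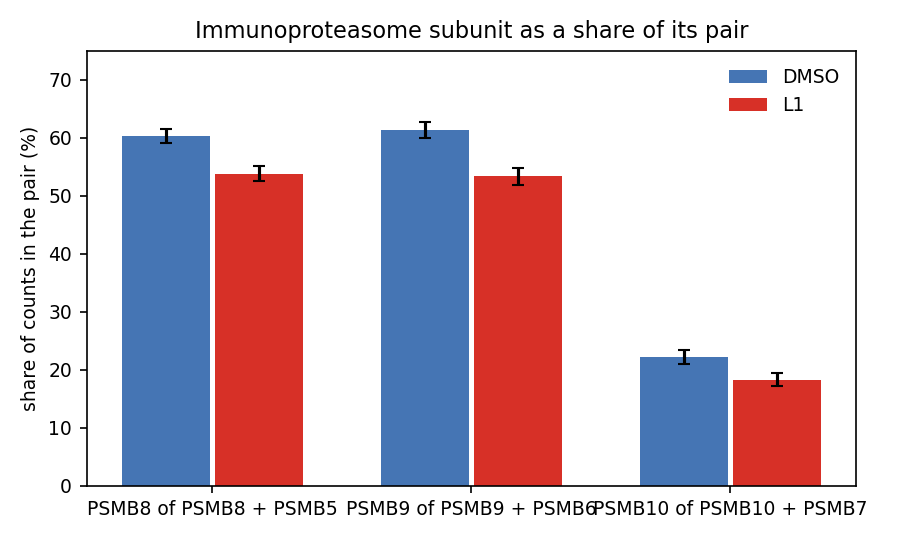
Share of counts (percent) of PSMB8, PSMB9 and PSMB10 in the sum with their constitutive counterparts PSMB5, PSMB6 and PSMB7, in the DMSO library (blue) and the L1 library (red), with 95% Wilson intervals for counting error. In each pair the bar is lower in L1, for PSMB8 53.8% against 60.3%.

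The other proteasome genes of the route came from a list of 7 that also holds PSMB10 and the 3 constitutive subunits. Of these 7, 1 was higher by 2-fold or more in the L1 library and 0 were lower by as much, against 7.12% and 4.83% of all genes, at a median log2 ratio of 0.37. The gene past 2-fold was PSME3, which encodes the nuclear proteasome activator PA28γ, with 2191 counts under DMSO and 6641 under L1 (log2 ratio 1.81, interval from 1.74 to 1.88). PSME1 and PSME2 encode the interferon-inducible activator PA28αβ. PSME1 had 4264 and 4055 counts (log2 ratio 0.14) and PSME2 had 2034 and 2903 (0.73). Of the words in PSME2 transcripts 13.1% are shared with other genes, including PSME2 pseudogenes, and for PSME3 the share was 7.71%.

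The list of peptide loading and trimming in the ER held 8 genes, of which 1 passed 2-fold upward and 0 downward, against 7.12% and 4.83% of all genes, so the count was near the background. Their median log2 ratio was 0.10. CALR, the lectin chaperone calreticulin of the loading complex, had 15101 counts under DMSO and 26153 under L1, a log2 ratio of 1.01 whose interval from 0.98 to 1.03 includes values under 2-fold. With DESeq2 size factors 0 genes of this list were past 2-fold upward. PDIA3, the oxidoreductase ERp57 that is bound to tapasin, had 23154 and 29974 counts (log2 ratio 0.59). CANX, calnexin, the chaperone of newly made heavy chains, had 28632 and 13290 counts (log2 ratio -0.89, interval from -0.92 to -0.86). There were 0.53 CALR counts for each CANX count in DMSO and 1.97 in L1. The aminopeptidases that trim peptides in the ER had log2 ratios of -0.15 for ERAP1 and 0.0036 for ERAP2.

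**Figure D5:**
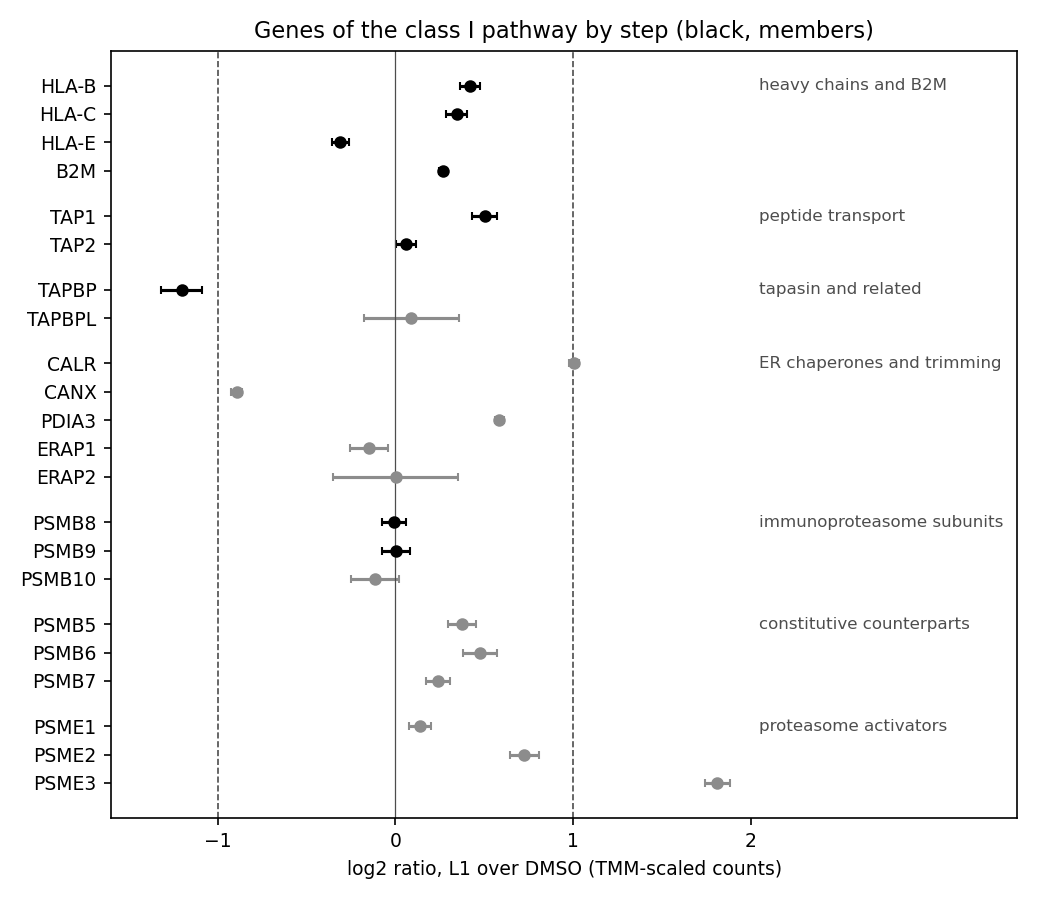
Log2 ratio of L1 over DMSO with 95% counting intervals for genes of the class I route, grouped by step, with the 9 genes of the set in black and others in grey, and dashed lines at 2-fold. TAPBP lies at -1.20 and CANX at -0.89, while PSME3 lies at 1.81 and CALR at 1.01.

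Peptidases of the cytosol and regulators of class I genes gave counts past 2-fold near those of all genes. Of all genes, 7.12% were higher and 4.83% lower by 2-fold or more, and 49.6% had a log2 ratio above 0. Of the 6 cytosolic peptidases, 0 were past 2-fold and 5 had a log2 ratio above 0. Their median log2 ratio was 0.21, against -0.0040 for all genes. NRDC had a log2 ratio of 0.39 and BLMH of 0.33, and NPEPPS, an aminopeptidase, had 0.76. Of the 24 genes of transcriptional control and interferon signalling, 0 were past 2-fold, 10 had a log2 ratio above 0, and the median was -0.08. NLRC5, the transactivator of class I genes, had 1703 counts under DMSO and 1143 under L1. For NLRC5 the log2 ratio was -0.36, with a 95% interval of -0.47 to -0.25. IRF1, a transcription factor that binds ISRE elements, had 1408 and 1871 counts (log2 ratio 0.62), and RELA, an NF-κB subunit, had 1829 and 2403 (0.61). The DNA-binding partners RFX5 (-0.18), RFXAP (-0.12), NFYA (-0.08) and ATF1 (0.02) had log2 ratios on both sides of 0. JAK1 (0.10), JAK2 (-0.14) and SUZ12 (-0.08) had the most counts in this list. SUSD6, TMEM127 and WWP2, which together remove class I from the surface, had log2 ratios of -0.05, 0.19 and -0.22, with 0 of the 3 past 2-fold.

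Class I-like chains are folded like class I and mostly have other ligands. FCGRT, the heavy chain of the neonatal Fc receptor, had 1785 counts under DMSO and 2010 under L1 (log2 ratio 0.38), and HLA-F had 339 and 317 (0.12, with an interval from -0.11 to 0.34 that included 0). MR1, which presents vitamin B metabolites, had 328 and 150 counts and a log2 ratio of -0.92 (95% interval -1.20 to -0.63).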

How the data were processed

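Captured mRNA of HEL cells was sequenced in 1 library for L1 and 1 for the vehicle. The authors deposited whole-number counts of 61806 Ensembl genes, not normalized, and FPKM values for 13924 genes. Per the labels, the submitters' processing notes name fastp 2.0, HISAT2 2.1.0, StringTie and hg38. The counting program, the annotation and the use of strand are not given in the sources used here, and they decide how reads over overlapping or near-identical genes were counted.

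The deposited counts were scaled by TMM in edgeR 4.0.16, and DESeq2 1.42.0 (R 4.3.3) gave other size factors. Other steps used Python 3.11.15 with scipy 1.17.1. Genes with at least 10 counts in 1 library were kept. A gene was called past 2-fold after a prior count of 2 was added. Ratios of named genes carry no prior count. Without replicates nothing was tested. Clopper-Pearson, Wilson and Poisson intervals at 95% cover counting error only. Gene positions, exon overlaps and the 31-base words of transcripts were read from GENCODE release 29 on GRCh38, where 58254 IDs matched. Promoter windows came from RefSeq (GRCh38.p14). Only the scaling and the log2 ratios with their Clopper-Pearson intervals were tried on simulated data.

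The members and lists were chosen with earlier results of these data known. In each list the genes past 2-fold with at least 100 counts were to be named, and otherwise the 3 with the most counts. The results of 2 listed genes, and the summary of the list of class I-like chains, are not reported here. MR1, CANX, PDIA3, TAPBPL, ERAP1, ERAP2, PSME1, PSME2, the PSMB subunits, NLRC5, IRF1, RELA, RFX5, RFXAP, NFYA, ATF1, the neighbours of TAPBP, OAS3, HLA-DMB, CIITA, the minimum of 500 counts, the motifs, the paired ratios and the shares were chosen after values were seen. The alternatives were other scalings, FPKM values, prior counts, minimum counts, thresholds, protein-coding genes alone and overlapping genes summed on the same strand. Summing over both strands and ratios within a library were added after the data were seen.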

Additional observations from a re-analysis of the deposited data

How the results depend on the processing

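No paired analysis was possible because neither condition has a second library. TAPBP stayed at least 2-fold lower under every alternative run, with log2 ratios from -1.23 to -1.05. The value of -1.05, on log2(FPKM + 1), was outside its counting interval. For the 9 class I genes the deposited FPKM differed between the libraries by the same fold as the TMM-scaled counts. The FPKM alternatives therefore varied only the constant added to FPKM and are no separate check of these genes. Each other scaling moved all genes by the same step. With total counts HLA-E was at -0.26 and B2M at 0.32, and B2M was at 0.23 with DESeq2 and 0.30 with the upper quartile. Of the 7 class I genes whose interval excluded 0, none changed sign under these alternatives. PSMB8 ranged from -0.04 to 0.04 and PSMB9 from -0.03 to 0.05. The numbers of class I genes past 2-fold, 0 higher and 1 lower, and their median stayed within 1.5 times or the counting interval.

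Of the 90 genes of the other lists 75 passed 10 counts, and of these 5 were at least 2-fold higher and 1 lower, against 7.12% and 4.83% of all genes. The numbers of those higher were 3 with DESeq2 size factors, a prior count of 5 or a minimum of 100 counts, 2 with either FPKM scale, 9 with a minimum of 1 count, 13 at 1.5-fold and 1 when the whole counting interval had to pass. Those lower were 0 on FPKM, with a minimum of 100 counts or with the whole interval, and 4 at 1.5-fold. HLA-DMB, the gene called lower, has no FPKM value and was not evaluated on that scale. IFI27 and XAF1, which were called higher, have none either. Their median, 0.10, was 0.15 with total counts. For single lists, 256 of 279 values stayed and 23 moved.

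Of all genes, 1290 were higher and 876 lower. The numbers were 199 and 153 on log2(FPKM + 1), 348 and 298 on log2(FPKM + 0.1), 3544 and 1811 with a minimum of 1 count, 387 and 361 with a minimum of 100 counts, 2506 and 2065 at 1.5-fold, 547 and 350 with whole intervals, and 688 and 502 over protein-coding genes. The FPKM numbers come from the 13924 genes with FPKM values, while 1290 and 876 come from the 18123 genes kept. Genes with few counts limit these numbers.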

Other observations

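MHC class II molecules present peptides from taken-up protein, and HEL held transcripts of some of their genes. Of the 11 class II genes, 6 passed 10 counts and 4 had 0 counts in both libraries, HLA-DRB1, HLA-DQA1, HLA-DQB1 and HLA-DOA, each of which allows up to 3 counts per library. CD74, the invariant chain, had 5002 counts under DMSO and 4996 under L1. For CD74 the log2 ratio was 0.21, with a 95% interval of 0.15 to 0.27. HLA-DPA1 had 1050 and 918 counts (log2 ratio 0.02) and HLA-DMA, part of the class II peptide editor, had 532 and 477 (0.06), and both intervals included 0. Of the 6 genes, 0 were higher and 1 was lower by 2-fold or more, against 7.12% and 4.83% of all genes. The gene past 2-fold was HLA-DMB, with 11 counts under DMSO and 2 under L1, a ratio whose counting interval on the log2 scale ran from -5.46 to -0.05. CIITA, the class II transactivator, had 323 and 378 counts (log2 ratio 0.44).

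Stress-induced ligands of the natural killer receptor NKG2D differed in direction. Of 8 genes, 4 passed 10 counts and 0 were past 2-fold. MICB had 1543 counts under DMSO and 1102 under L1 (log2 ratio -0.27), MICA had 301 and 376 (0.53), and ULBP2 had 77 and 98 (0.56). Of 16 interferon-stimulated genes, 13 passed 10 counts, 3 passed 2-fold upward and 0 downward, against 7.12% and 4.83% of all genes, at a median log2 ratio of 0.26. The 3 became 0 with the whole counting interval past 2-fold, and 1 with a prior count of 5 or a minimum of 100 counts. On either FPKM scale the number was 0, but IFI27 and XAF1 have no FPKM value. Of the 3, only GBP1 was therefore evaluated on FPKM. The median was 0.09 on log2(FPKM + 1), over the genes with a value. GBP1, an interferon-inducible GTPase, had 59 counts under DMSO and 114 under L1. For GBP1 the log2 ratio was 1.16, with a 95% interval of 0.70 to 1.64, while IFI27 and XAF1 had at most 21 counts. OAS3, named after its value was seen, had 1983 and 1349 counts and a log2 ratio of -0.34, the lowest of the 13. Of the 13, 10 had a log2 ratio above 0, against 49.6% of all genes.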
